A study of Mus musculus with 18 samples.

Results

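Replication-dependent histone genes were followed across 18 Affymetrix arrays of sorted mouse cells: 15 arrays of lymphoma cells driven by the NPM-ALK fusion kinase and 3 arrays of healthy bone marrow LSK cells. A probe set was counted as a member when every gene symbol it carries is a numbered H2A, H2B, H3 or H4 gene of the replication-dependent clusters (H2ac, H2bc, H3c and H4c, formerly Hist1h to Hist4h). This gave 51 probe sets of 41345 in the value table, and of 25335 with at least 1 symbol. The rule reads gene symbols, not signals. Another 8 probe sets carry such a symbol beside a gene from outside these clusters and were not counted.

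Healthy LSK cells, the stem and progenitor population that lacks lineage markers and carries SCA1 and KIT, form the control group of 3 arrays. They came from bone marrow of healthy mice of 18 months with the genotype field wildtype. The lymphoma cells came from Lck-Cre transgenic mice that were irradiated at a sublethal dose and given bone marrow infected with an NPM-ALK retrovirus, so that the kinase is expressed where the Lck promoter drives Cre, in early T cells. Lymphomas were taken from the thymus of moribund mice, whose ages are not given, and sorted into 5 fractions of 3 arrays each: CLP, named after the common lymphoid progenitor, and DN1, DN2, DN3 and DN4, named after the CD4- CD8- thymocyte stages. The series design names 3 lymphomas but does not tie the replicate numbers to them. The description fields of several arrays name an aged NIPA KO or wild type mouse and, for 12 arrays, 4 Gy of irradiation, which goes against the other labels, and groups were taken from titles only. In those fields LSK array 3 carries the dose, while CLP array 3 and the 3 DN4 arrays do not. By the titles, genotype fields and protocols, tissue, genotype, virus and the irradiation before transplantation differ between LSK and lymphoma. Age may differ too, and so may sex, as read from Xist and Eif2s3y below. The parts of all these in any difference between the groups cannot be told apart.

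Marker genes were read against the labels. The mean of 4 T cell genes (Cd3e, Cd3g, Cd3d and Cd2) was 11.2 to 11.9 log2 units on the lymphoma arrays and 5.35 to 5.43 on the LSK arrays. The mean of 4 stem and progenitor genes was 4.73 to 4.91 and 8.89 to 9.06. The 5 granulocyte genes, 2 of them below background in every group, averaged 7.88 to 8.90 on LSK arrays against 4.57 to 5.45 on lymphoma arrays. The 4 B and plasma cell genes, 2 of them below background in every group, averaged 5.75 to 5.92 in DN1 and 4.38 to 4.71 in the other fractions, and 5.39 to 6.49 in LSK. Their list mean in DN1 rested mostly on 1 gene. Jchain differed by -4.15 in DN2 against DN1, and Cd79a, Cd79b and Ms4a1 by -0.42, -0.30 and -0.09. The 5 macrophage genes averaged 6.49 to 6.63 in LSK, 5.51 to 5.76 in DN1 and 4.77 to 5.53 in the other fractions, and the 3 erythroid genes 6.26 to 6.71 in LSK and 4.94 to 5.47 in the lymphoma fractions. Of the erythroid genes Car1 differed from LSK by -2.92 in the lymphoma mean, Epor by -0.44 and Klf1 by -0.19. The part of these other cell types in the histone values was not tested. Arrays of CLP correlated least with each other (r of 0.967 to 0.974, against 0.981 to 0.993 within the other groups). LSK array 2 carried signal of both Xist (10.74) and the Y-linked Eif2s3y (7.43), while LSK array 1 was at 3.55 and 8.42 and LSK array 3 at 10.00 and 4.69. The lymphoma mean differed from LSK by -4.02 ± 1.70 for Xist and by 2.20 ± 0.84 for Eif2s3y (limma adjusted p = 0.154 and 0.121). The part of sex in the histone values was not tested.

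Core histones H2A, H2B, H3 and H4 form the protein spool around which DNA is wound. A dividing cell must make a new set for each copy of its genome, and most of this supply comes from clustered, intronless genes that are transcribed mainly while DNA is being replicated. Their mRNAs usually end in a stem-loop bound by the protein SLBP instead of a poly(A) tail, and they are degraded when DNA synthesis stops. In the thymus, bursts of division alternate with pauses in which antigen receptor genes are rearranged.

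The 51 probe sets name 52 genes, of which RefSeq places 42 on chromosome 13 and 10 on chromosome 3. They divide into 18 for H2A, 13 for H2B, 12 for H3 and 8 for H4. Only 22 carry a single gene symbol (7 for H2A, 8 for H2B, 0 for H3 and 7 for H4), and 29 carry several, because the coding sequences of these genes are nearly the same. A value of such a probe set belongs to the group of genes it lists and cannot be split among them. In 2 cases a probe set repeats all 18 values of another, which leaves 49 distinct members. Linker histone genes lie outside the rule.

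The stretch before the transcription start was read for short letter strings known from histone promoters. RefSeq windows (build GRCm38.p6) were found for 47 of the 52 genes, 48 windows of 250 bases in all. The strings were CCAAT (the CCAAT box, bound by NF-Y), TATAAA (the TATA box) and ATTTGCAT (the octamer, bound by OCT1), each on both strands. Their ends can share letters (the last T of CCAAT can open TATAAA, for instance), which happened in 0 of the 48 windows. The windows of 5 genes that recur in the results are given 5′ to 3′ on the gene's strand, with these strings, on either strand, in capitals. H2ac10 lies at chr13:23533625-23533874 (+), H2ac20 at chr3:96220881-96221130 (-), H2bc12 at chr13:22035571-22035820 (+), H2bc18 at chr3:96269450-96269699 (+) and H4c9 at chr13:22041363-22041612 (-).
H2ac10: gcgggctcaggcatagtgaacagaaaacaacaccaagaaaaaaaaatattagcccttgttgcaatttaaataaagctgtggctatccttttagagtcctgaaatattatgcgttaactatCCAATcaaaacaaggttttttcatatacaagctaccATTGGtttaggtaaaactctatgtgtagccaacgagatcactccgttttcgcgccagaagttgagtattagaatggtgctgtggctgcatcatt
H2ac20: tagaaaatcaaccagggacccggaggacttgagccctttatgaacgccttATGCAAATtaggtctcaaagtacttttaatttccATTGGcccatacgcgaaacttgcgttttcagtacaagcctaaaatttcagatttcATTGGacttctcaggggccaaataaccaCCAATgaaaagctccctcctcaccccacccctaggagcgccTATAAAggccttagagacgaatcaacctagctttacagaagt
H2bc12: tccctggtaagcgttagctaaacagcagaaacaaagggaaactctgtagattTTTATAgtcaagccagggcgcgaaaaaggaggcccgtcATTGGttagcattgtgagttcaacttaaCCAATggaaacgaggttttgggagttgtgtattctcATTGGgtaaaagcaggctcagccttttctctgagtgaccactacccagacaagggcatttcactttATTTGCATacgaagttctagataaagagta
H2bc18: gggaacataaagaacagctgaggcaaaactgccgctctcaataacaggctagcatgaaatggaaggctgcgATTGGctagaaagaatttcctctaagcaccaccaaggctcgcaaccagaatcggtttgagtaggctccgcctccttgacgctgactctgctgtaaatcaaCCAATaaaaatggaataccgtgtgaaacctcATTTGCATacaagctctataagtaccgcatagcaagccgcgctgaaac
H4c9: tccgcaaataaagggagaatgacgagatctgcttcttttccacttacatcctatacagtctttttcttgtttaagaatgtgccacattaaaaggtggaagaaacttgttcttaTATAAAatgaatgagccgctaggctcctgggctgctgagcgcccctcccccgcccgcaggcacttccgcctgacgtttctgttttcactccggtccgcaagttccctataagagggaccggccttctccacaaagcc
Both H2A windows and both H2B windows hold 2 or 3 CCAAT boxes, and the H4c9 window holds none. Over all member windows the CCAAT box was found in 40 of 48 (83.33%), against 33.85% of 32851 promoter windows of the same length. By class it was in 17 of 17 windows for H2A, 14 of 14 for H2B, 8 of 10 for H3 and 1 of 7 for H4. These windows are not all separate stretches: 8 H2A and 8 H2B genes lie head to head, and each pair's windows share 163 to 248 bases read on opposite strands, so the same boxes count for both classes. The TATA box string, at any place in the window and on either strand, was in 22 of 48 (45.83%, against 12.37% of all windows). The octamer was in 13 of 48 (27.08%, against 1.601%), of which 6 belong to H2A and 7 to H2B. A match is a description of the letters, not of binding, and neither its distance from the start nor its orientation was checked.

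Signals are log2 values, so a difference of 1 is a doubling. Background was gauged on each array from 1108 probe sets of olfactory receptor genes, which blood cells hardly express. Their 95th percentile lay between 5.36 and 5.71. A probe set was taken as above background in a group when all 3 arrays passed this level. One that met this rule in no group is called below background in every group, even where single arrays passed. This held for 22 of the 51 members in all 6 groups, for 30 in at least 1 group, and for 21 in none. The 30 were 13 for H2A, 8 for H2B, 5 for H3 and 4 for H4. Probe sets that list the same genes could fall on both sides of background: of 7 probe sets for the same 10 H2A genes 4 passed in at least 1 group, and of 8 for the same 8 H3 genes 4 passed. Signals of different probe sets were therefore not compared as RNA amounts.

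**Figure D1:**
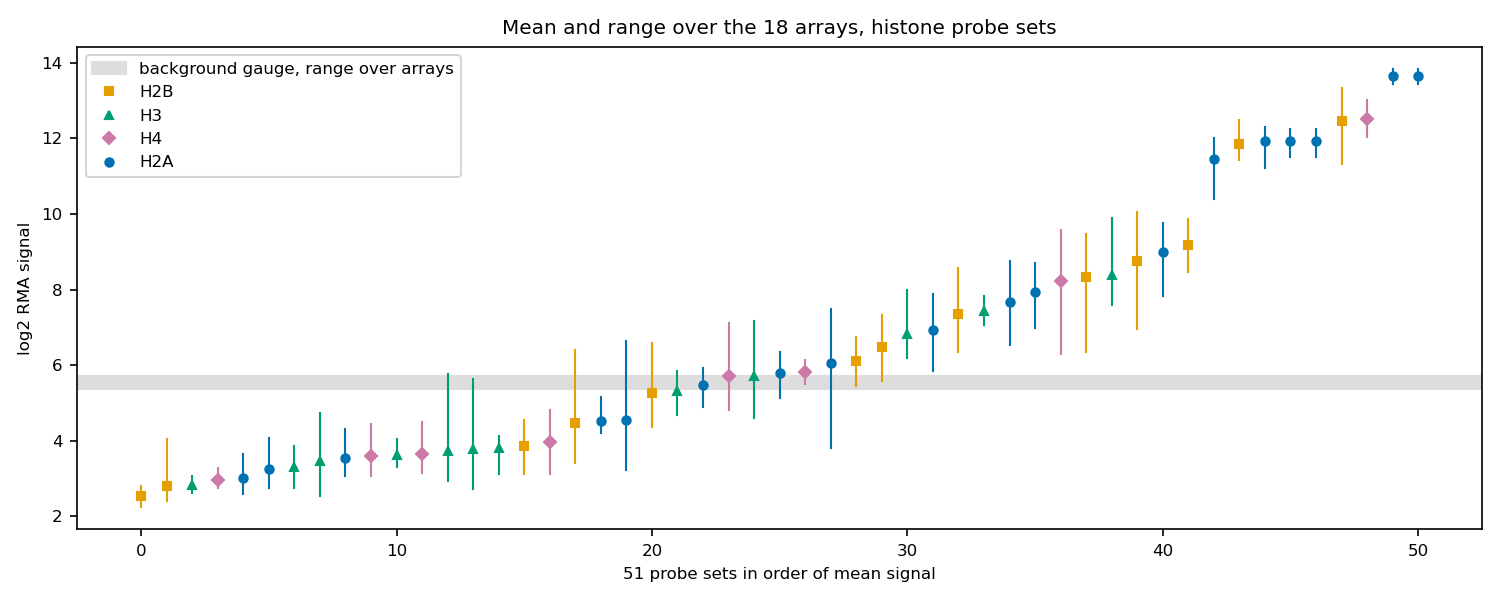
Mean log2 signal (vertical axis) of each of the 51 histone probe sets, placed in order of that mean along the horizontal axis and marked by histone class, with a line for the range over the 18 arrays and a grey band for the background level. The 22 members above background in all groups include H2ac10, H2ac20, H2bc12, H2bc18 and H4c9, and the order shows only how far a probe set stands from background.

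Each contrast with LSK asks whether the lymphoma cells carried more or less of a histone mRNA than the healthy stem and progenitor population that the design names as control. Averaged over the 5 fractions, histone signals were mostly higher in lymphoma than in LSK. Of the 51 members 16 rose and 2 fell (18 called, adjusted p under 0.05 from limma with Benjamini-Hochberg adjustment over all probe sets), where 18.5% of all probe sets and 22.3% of those with a symbol were called. In single directions 8.97% of all probe sets rose and 9.49% fell. Of the 18 called members 6 met the background rule in no group. Of the 30 members above background in at least 1 group 12 were called (40%), against 34.5% of the probe sets with a symbol that met the same rule. The median difference of the members was 0.34, against 0.07 over all probe sets. The value of a sample of sorted cells is an average, so fewer cells that are replicating their DNA and less histone mRNA in each of them cannot be told apart. The labels do not say that replicates are separate mice, so p-values measure only the spread between these samples, and 3 arrays a group limit their precision.

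By fraction the counts were uneven, and all these comparisons share the same 3 LSK arrays. DN2 had 22 members higher and 2 lower than LSK, where 15.8% of all probe sets were called in either direction, 7.67% rose and 8.14% fell. DN3 had 15 higher and 3 lower, where 14.6% of all probe sets were called, 7.11% rose and 7.53% fell. CLP had 7 higher and 2 lower, against 9.09% called, 3.35% higher and 5.74% lower over all probe sets. DN4 had 8 higher and 2 lower, against 16.7%, 8.22% and 8.53%. DN1 had 2 higher and 1 lower, against 12.5%, 5.87% and 6.6%, and its 3 calls are 5.88% of the members. These were a probe set of 10 H2A genes and H2bc14, both higher, and a probe set of 8 H3 genes, which was lower. The members' share in DN4, 19.6%, was close to the 19.9% of all probe sets with a symbol. Median differences of the members were 0.51 in DN2, 0.44 in DN3, 0.38 in CLP, 0.26 in DN4 and 0.15 in DN1, against 0.05 to 0.09 over all probe sets. In DN2 1 of the 22 repeats the values of another member. Among probe sets above background in at least 1 group, the called share of the 30 members and of all with a symbol was 60% and 30.3% in DN2, 43.3% and 29.1% in DN3, 20% and 18.8% in CLP, 23.3% and 31.3% in DN4 and 3.33% and 23.3% in DN1. A member can pass this rule through the group in which it is high, so these shares are a description.

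Single arrays moved several of these counts. Without CLP array 1 the count of members higher in CLP than in LSK was 16, and without CLP array 2 it was 2. Without DN2 array 1 the DN2 count was 13, and without DN4 array 2 the DN4 count was 3. In DN1 it was 0 without DN1 array 1 and 5 without DN1 array 2. Calls that were held whichever single array (or, for the lymphoma mean, replicate number) was left out numbered 13 of 18 for the lymphoma mean, 11 of 24 for DN2, 8 of 18 for DN3, 5 of 10 for DN4, 2 of 9 for CLP and 0 of 3 for DN1. With all 18 arrays in 1 model, which sets 1 spread for all groups, 19 members were higher in CLP, 14 in DN2 and 2 in DN4. Calls named below that this model lost were those of 17285680 in the lymphoma mean, DN2, DN3 and DN4, 17285867 in the lymphoma mean, 17285851 in DN2 and DN3, H2ac20 and H2bc22 in DN4, H2bc14 in DN1, DN2 and DN4, 17291057 in DN1 and DN4, 17291190 in DN4, and 17290997, H4c9, H4c17, H2bc3 and H2bc22 in DN2.

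**Figure D2:**
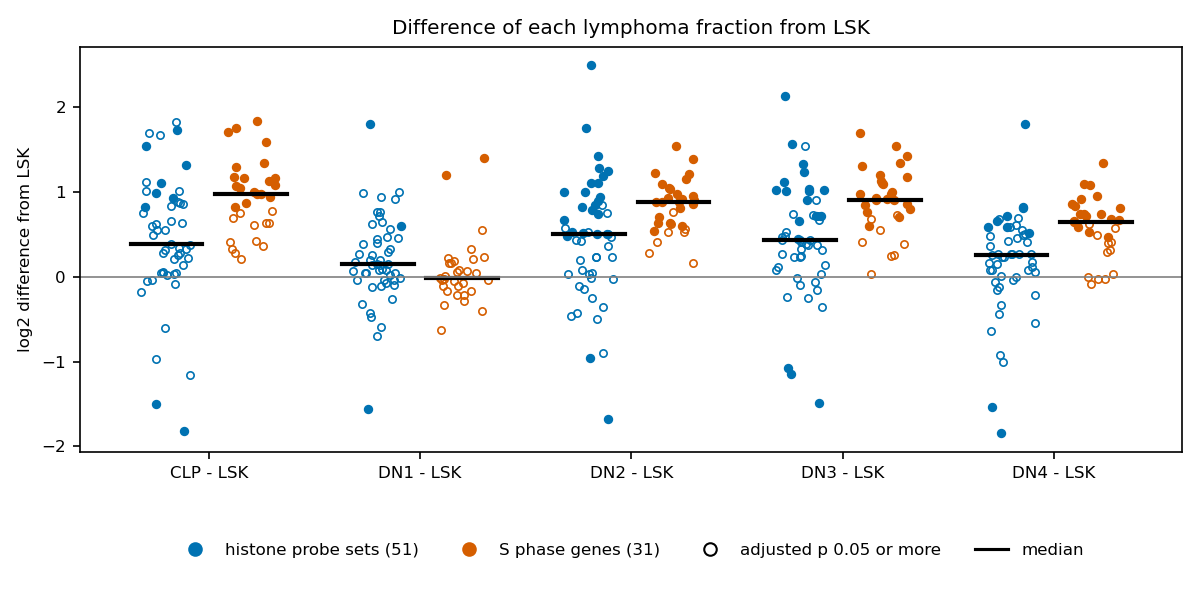
Log2 difference from LSK (vertical axis) of the 51 histone members (blue) and the 31 S phase genes (orange) in each lymphoma fraction, with filled points for adjusted p under 0.05 and a bar at the median. Members are called most often in DN2 (24) and least often in DN1 (3), and the S phase median is 0.88 in DN2 and -0.01 in DN1.

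The H2A genes, whose product pairs with H2B in the nucleosome, form the class with the most members. Of 18 H2A members 9 (50%) rose and 0 fell in the lymphoma mean, 9 rose in DN2 (50%), 7 in DN3 (38.9%), 4 each in CLP and DN4 (22.2%), and 1 in DN1 (5.56%), with the shares of all probe sets as above. The share in DN4 is near the 19.9% of probe sets with a symbol. At an unadjusted p under 0.05, 11 of the 18 differed in the lymphoma mean.

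H2ac10 (probe set 17285819), a single-gene H2A member of chromosome 13, was at 10.79, 10.67 and 10.41 on the 3 LSK arrays. It was at 11.63, 11.77 and 11.79 in CLP, at 12.02, 11.71 and 11.98 in DN2 and at 11.60, 11.97 and 11.64 in DN3. In DN4 it was at 11.45, 11.47 and 11.40, and in DN1 at 11.36, 10.88 and 11.55. All 15 lymphoma arrays lay above all 3 LSK arrays, and DN1 array 2 came nearest to them. The difference from LSK was 0.99 ± 0.12 (SE, n = 3 against 3, adjusted p = 0.00133) in the lymphoma mean. It was 1.28 ± 0.15 in DN2 (adjusted p = 0.000818), 1.12 ± 0.16 in DN3 (0.003), 1.11 ± 0.16 in CLP (0.0069) and 0.82 ± 0.13 in DN4 (0.00487). In DN1 the difference was 0.64 ± 0.20 (adjusted p = 0.0886). The 5 calls were held with any 1 array left out.

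H2ac20 (17408011), an H2A gene of chromosome 3, was at 8.27, 7.83 and 8.37 in LSK and at 9.43, 9.21 and 9.58 in DN2. It was at 8.88, 9.61 and 9.02 in DN3, at 8.97, 9.11 and 8.82 in DN4, at 8.61, 9.67 and 9.22 in CLP and at 9.03, 8.48 and 9.77 in DN1. Every lymphoma array lay above the 3 LSK arrays, with the widest spread in CLP and DN1. The lymphoma mean was 1.00 ± 0.16 higher (adjusted p = 0.00534), and DN2 was 1.25 ± 0.18 higher (0.00232). DN3 and DN4 also passed (0.0236 and 0.0154), the latter not without DN4 array 2 (0.0573) and the former not without DN3 array 3, LSK array 1 or LSK array 2. CLP and DN1 differed by 1.01 and 0.94 (adjusted p = 0.0946 and 0.11).

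H2ac15 (17291001), of chromosome 13, was at 7.00, 6.53 and 7.02 in LSK, at 7.96, 8.13 and 8.42 in CLP and at 8.45, 7.51 and 8.15 in DN2. It was at 7.74, 7.02 and 8.76 in DN1, at 7.60, 8.37 and 7.27 in DN3 and at 7.48, 7.23 and 7.27 in DN4. DN1 array 2 reached the level of the highest LSK array, while the others lay above it. H2ac15 rose by 0.98 ± 0.16 in the lymphoma mean (adjusted p = 0.00579), by 1.32 ± 0.21 in CLP (0.0103) and by 1.19 ± 0.25 in DN2 (0.0168). The DN2 call was lost without DN2 array 1, DN2 array 3 or LSK array 2.

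A probe set for 10 H2A genes (17291057, H2ac11 first) gave the largest difference from LSK of any called member. It was at 4.64, 4.79 and 3.82 in LSK, which is below background. It was at 6.92, 6.85 and 6.96 in DN2, at 6.27, 7.10 and 6.28 in DN3, at 6.46, 6.06 and 6.13 in DN4 and at 7.31, 5.67 and 5.67 in DN1. In CLP array 1 stood at 3.90, inside the LSK range, against 7.49 and 6.90 on the other 2. DN2 was 2.49 ± 0.24 above LSK (adjusted p = 0.000336), DN3 2.13 above (0.00338), DN4 1.80 above (0.00272) and the lymphoma mean 1.98 ± 0.26 above (0.00197). Because LSK was below background, the fold depends on where background lies. The DN1 call (1.80, adjusted p = 0.044) was lost without DN1 array 1 or 2 or any LSK array, and CLP was 1.68 ± 0.90 above LSK (adjusted p = 0.319).

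Other probe sets that list these same genes gave smaller differences. Probe set 17291204 (H2ac6 first) was at 5.84 to 6.37 in LSK and 6.56 to 7.89 in lymphoma, and the lymphoma mean was 0.88 ± 0.17 higher (adjusted p = 0.0113). Probe set 17285677 (H2ac23 first) was 0.64 ± 0.13 higher (0.014). Probe set 17285867 (H2ac4 first) met the background rule in no group, although single arrays passed (among them CLP array 3 at 6.63 and DN3 array 1 at 5.78). Its lymphoma mean was 1.27 ± 0.14 higher (0.000919). Probe set 17291012 (H2ac22 first) was at 11.22 to 11.60 in LSK and 12.18 to 12.31 in DN2, and rose by 0.79 ± 0.14 in DN2 (0.00711). Probe sets 17285838 and 17291186, for the same genes, were below background in every group. Their lymphoma means differed from LSK by 0.08 and 0.04 (adjusted p = 0.612 and 0.895). The H2A probe set with the highest signal, for H2ac18, H2ac19 and H2ac20 (17400545), lay between 13.44 and 13.84 on all 18 arrays. Its lymphoma mean differed from LSK by 0.12 ± 0.09 (adjusted p = 0.442).

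**Figure D3:**
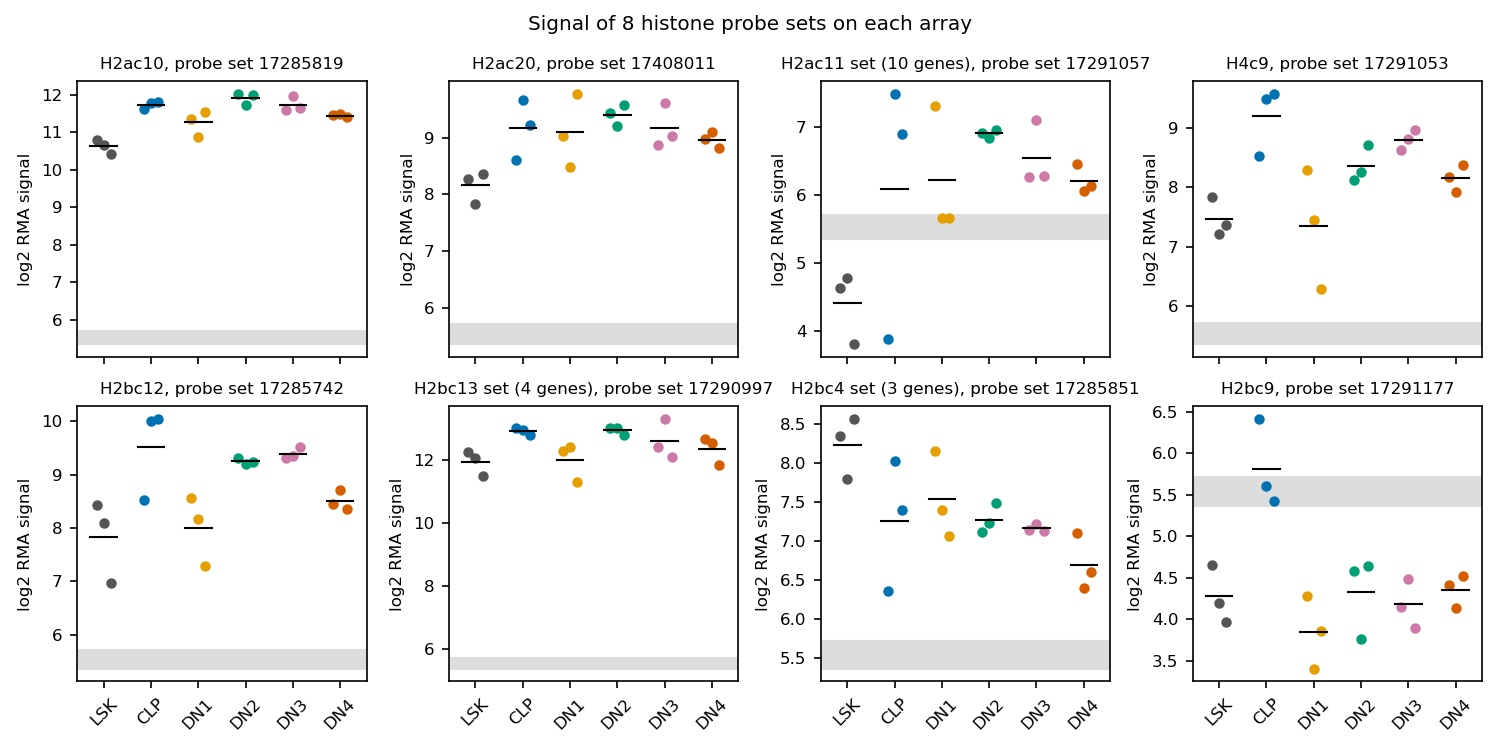
Log2 signal (vertical axis) of 8 histone probe sets on each of the 18 arrays, by group, with a line at each group mean and a grey band for background. H2ac10 lies at 10.41 to 10.79 in LSK and 10.88 to 12.02 in the lymphoma fractions, and H2bc9 stands higher in CLP (5.42 to 6.41) than elsewhere.

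H2B members moved in both directions. Of 13 H2B members 4 rose and 1 fell in the lymphoma mean (38.5% called). DN2 had 7 higher and 1 lower (61.5%), DN3 and DN4 3 higher and 1 lower each (30.8%), CLP 2 higher (15.4%) and DN1 1 higher (7.69%). Over all probe sets 18.5% were called in the lymphoma mean, 15.8% in DN2, 14.6% in DN3 and 16.7% in DN4. The share in CLP is near the 9.09% of all probe sets and the 11.4% of those with a symbol. The share in DN1 lies under the 12.5% of all probe sets.

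H2bc12 (17285742), on chromosome 13, was at 8.42, 8.08 and 6.96 in LSK, at 9.31, 9.20 and 9.23 in DN2 and at 9.31, 9.35 and 9.52 in DN3. It was at 8.55, 8.18 and 7.28 in DN1, at 8.45, 8.71 and 8.35 in DN4 and at 8.53, 10.00 and 10.04 in CLP. DN1 and DN4 overlapped with LSK, and CLP, DN2 and DN3 did not. DN2 was 1.42 ± 0.34 higher than LSK (adjusted p = 0.0254) and DN3 1.57 ± 0.34 higher (0.0197). The DN2 call was lost without any 1 DN2 array, and the DN3 call without DN3 array 1 or 3. CLP was 1.70 higher (adjusted p = 0.111) and the lymphoma mean 1.11 higher (0.0666).

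H2bc18 (17400562), on chromosome 3, was at 9.05, 8.57 and 8.46 in LSK and at 9.74, 9.56 and 9.59 in DN2, a rise of 0.94 ± 0.17 (adjusted p = 0.00854) that was held with any 1 array left out. It was at 9.24, 9.86 and 9.59 in CLP, at 9.17, 9.72 and 9.37 in DN3, at 9.01, 8.62 and 9.04 in DN1 and at 8.80, 9.23 and 8.82 in DN4. Only DN1 and DN4 overlapped with LSK. The rise of the lymphoma mean (0.60 ± 0.17, adjusted p = 0.0467) was lost in 5 of 6 fits that left out a number or an LSK array.

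The H2B probe set with the highest signal, for 4 genes (17290997, H2bc13 first), was at 12.27, 12.09 and 11.49 in LSK, at 13.02, 13.04 and 12.80 in DN2 and at 13.03, 12.98 and 12.81 in CLP. It rose by 1.00 ± 0.21 in DN2 (adjusted p = 0.0142), a call lost without DN2 array 1 or 2. The CLP rise (0.99 ± 0.23, 0.0433) was lost without any 1 of the 6 arrays. Another probe set for these 4 genes, 17291190 (H2bc15 first), was at 6.02, 5.57 and 5.83 in LSK and between 6.18 and 7.32 on the lymphoma arrays, with no overlap. It rose by 0.82 ± 0.14 in the lymphoma mean (adjusted p = 0.0058) and by 1.10 ± 0.16 in DN2 (0.00303), both held with any 1 array left out. Its calls in DN3 (1.03, 0.0304) and DN4 (0.58, 0.0468) were lost in 4 and 5 of 6 such fits.

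H2bc3 (17285863) was at 11.43 to 11.65 in LSK and 12.01 to 12.17 in DN2, 0.53 ± 0.12 higher (0.0209), a call lost in 5 of 6 fits without 1 array. Of the H2B members that met the background rule in no group, H2bc22 (17285696) rose in the lymphoma mean (0.88 ± 0.16, adjusted p = 0.00864) and H2bc14 (17285683) by 0.67 ± 0.16 (0.0286), the latter lost in 4 of 6 such fits. Single arrays of H2bc22 passed the level, among them DN3 array 1 at 5.66 and DN3 array 2 at 6.18. H2bc22 was also called in DN2, DN3 and DN4, and H2bc14 in DN1, DN2 and DN4.

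A probe set for H2bc4, H2bc6 and H2bc8 (17285851) was the only member above background that fell in the lymphoma mean. It was at 8.34, 7.79 and 8.56 in LSK, at 7.10, 6.39 and 6.59 in DN4, at 7.14, 7.21 and 7.12 in DN3 and at 7.11, 7.22 and 7.48 in DN2. It was at 8.14, 7.40 and 7.06 in DN1 and at 6.36, 8.02 and 7.39 in CLP, both of which overlapped with LSK. It fell by 1.05 on the log2 scale in the lymphoma mean (SE 0.19, adjusted p = 0.0094), by 1.53 in DN4 (SE 0.25, 0.00482), by 1.07 in DN3 (0.0103) and by 0.96 in DN2 (0.0195). The DN3 and DN2 calls were lost with all 18 arrays in 1 model, and the DN2 call also without DN2 array 1 or 2 or LSK array 1 or 3. The other probe set that lists exactly these 3 genes (17285834) differed by 0.64 ± 0.45 in the opposite direction (adjusted p = 0.379), so the direction of these genes was not settled by the arrays.

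All 12 H3 members list several genes. In the lymphoma mean 2 rose and 1 fell (25% called), near the 22.3% of all probe sets with a symbol. DN2 had 4 higher and 1 lower, DN3 3 higher and 2 lower and DN4 1 higher and 1 lower. Over all probe sets 15.8%, 14.6% and 16.7% were called in these fractions. In CLP 2 fell and 0 rose (16.7% called, against 9.09% of all probe sets). In DN1 1 fell and 0 rose (8.33%, against 12.5%). The H3 probe set with the highest mean signal, for H3c10, H3c1, H3c11 and H3c8 (17285680), was at 7.92, 7.59 and 7.65 in LSK, at 8.95, 8.52 and 9.03 in DN2 and at 8.39, 8.94 and 8.87 in DN3. It was at 8.09, 8.35 and 8.28 in DN4, at 7.63, 8.59 and 8.41 in CLP, and at 8.28, 7.75 and 9.89 in DN1, where array 3 stood far above the other 2. Its rise was 1.11 ± 0.17 in DN2 (adjusted p = 0.00349) and 1.02 ± 0.18 in DN3 (0.0082). Both calls were held with any 1 array left out and lost with all 18 arrays in 1 model. The lymphoma mean rose by 0.81 ± 0.18 (0.0198), a call lost without LSK array 2 or 3, and DN4 by 0.52 ± 0.14 (0.0407), a call lost in 5 of 6 such fits. A dim probe set for the same 4 genes (17291008, H3c11 first) stayed below background in every group and rose by 0.60 in the lymphoma mean (0.00839).

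The H3 members that fell did not pass the background rule in any group. Probe set 17408015 (H3c15 first, 8 genes) was at 5.25, 4.40 and 5.77 in LSK, of which only the last passed the level of its array, and between 2.92 and 3.79 on the lymphoma arrays. It fell by 1.68 in the lymphoma mean (SE 0.31, adjusted p = 0.00938) and was called lower in each of the 5 fractions. Probe set 17291222 (H3c13 first), which lists the same 8 genes, fell by 1.50 in CLP (adjusted p = 0.0348) and by 1.14 in DN3 (0.0485), each lost in 5 of 6 fits without 1 array. Another probe set for these genes, 17400555, was above background in every group. It was at 7.36, 7.23 and 7.21 in LSK and at 7.82, 7.78 and 7.74 in DN2, where it rose by 0.51 ± 0.11 (0.0166), a call lost without DN2 array 1 or 2 or LSK array 2. A further probe set for them, 17400559, passed background in DN2 only, at 5.75, 5.81 and 5.85 against 4.80 to 5.14 in LSK, and rose there by 0.83 ± 0.13 (0.00372). Probe sets for the same H3 genes therefore differed in sign while called, and values below background have no order that can be read as RNA level.

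Of 8 H4 members 1 rose and 0 fell in the lymphoma mean and in CLP, 2 rose in DN2 and DN3, and 0 were called in DN1 and DN4 by limma. The 12.5% called in the lymphoma mean lies under the 18.5% of all probe sets and the 22.3% of those with a symbol. The 12.5% in CLP is near the 9.09% and 11.4% in that comparison. Over all probe sets 15.8% were called in DN2, 14.6% in DN3, 12.5% in DN1 and 16.7% in DN4. H4c9 (17291053), on chromosome 13, was at 7.83, 7.21 and 7.36 in LSK, at 8.62, 8.81 and 8.97 in DN3, at 8.52, 9.49 and 9.57 in CLP and at 8.13, 8.26 and 8.71 in DN2. It was at 8.18, 7.92 and 8.37 in DN4 and at 8.29, 7.45 and 6.29 in DN1, whose arrays spread across the whole LSK range. It rose by 0.91 in the lymphoma mean (adjusted p = 0.00819), by 1.34 ± 0.19 in DN3 (0.00268), by 1.73 ± 0.32 in CLP (0.0216) and by 0.90 in DN2 (0.0257). The CLP call was lost in 5 and the DN2 call in 4 of 6 fits without 1 array. In DN1 it differed by -0.13 (adjusted p = 0.905). The other H4 call in DN2, H4c17 (17285687), was below background in every group. The H4 probe set with the highest signal, H4c12 (17290999), was at 12.16 to 12.35 in LSK and 12.64 to 12.78 in DN3, a rise of 0.44 ± 0.12 (0.0486) that was lost without any 1 of the 6 arrays.

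**Figure D4:**
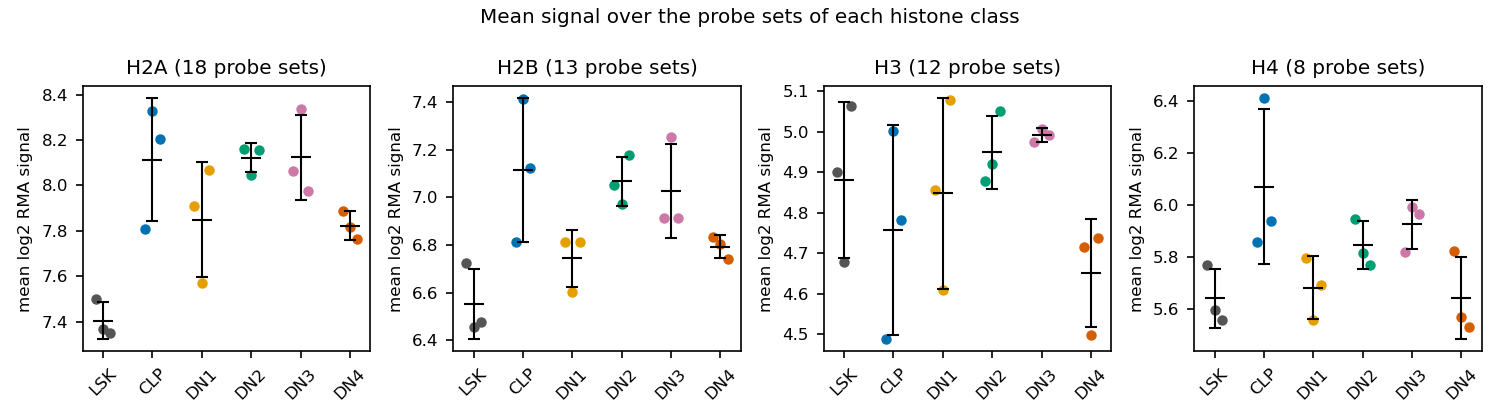
Mean log2 signal (vertical axis) over all probe sets of each histone class on every array, by group, with the group mean and SD. The H2A mean was 7.40 ± 0.08 (SD, n = 3) in LSK and 8.12 ± 0.06 in DN2, and the H3 mean was 4.88 ± 0.19 and 4.95 ± 0.09.

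The mean over all members of a class needs no choice of probe set, but it includes members that met the background rule in no group. For H2A it was 7.40 ± 0.08 (SD, n = 3) in LSK, 8.11 ± 0.27 in CLP, 8.12 ± 0.06 in DN2, 8.12 ± 0.19 in DN3, 7.85 ± 0.25 in DN1 and 7.82 ± 0.06 in DN4. For H2B it was 6.55 ± 0.15 in LSK, 7.12 ± 0.30 in CLP, 7.07 ± 0.10 in DN2, 7.03 ± 0.20 in DN3, 6.79 ± 0.05 in DN4 and 6.74 ± 0.12 in DN1. The lowest H2A value of any lymphoma array, 7.57 on DN1 array 2, lay above the highest LSK value of 7.50. For H4 the means were 5.64 ± 0.11 in LSK, 6.07 ± 0.30 in CLP, 5.93 ± 0.09 in DN3, 5.85 ± 0.09 in DN2, 5.68 ± 0.12 in DN1 and 5.64 ± 0.16 in DN4, and for H3 4.88 ± 0.19 in LSK, 4.99 ± 0.02 in DN3 and 4.65 ± 0.13 in DN4. In H2B 1 lymphoma array, DN1 array 2 (6.61), lay below the highest LSK array (6.72). A mean over the 8 H2B members above background in at least 1 group separated the arrays less. There CLP array 1 (8.39), DN1 array 2 (8.55) and DN4 array 3 (8.54) lay below LSK array 1 (8.64). In H4 DN1 and DN4 overlapped with LSK, while no array of CLP, DN2 or DN3 lay below the highest LSK array, which was level with the lowest of them at 5.77. The H3 ranges of LSK and lymphoma overlapped. The spread over arrays differed by group, with a median SD of the members of 0.31 in CLP and 0.17 in DN2.

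The count of members whose arrays did not overlap with LSK was also highest in DN2 and lowest in DN1. All 3 DN2 arrays lay above all 3 LSK arrays for 29 of 51 members and below for 3, against 19.2% and 14.6% of all probe sets. For DN3 the counts were 28 and 4 (18.9% and 13.8%), for CLP 26 and 3 (17.6% and 13.9%), for DN4 19 and 6 (20.9% and 14.9%) and for DN1 9 and 3 (17.1% and 13.6%). The count above LSK in DN1 thus equals 17.6% of the members, near the share of all probe sets.

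Contrasts among the fractions leave LSK out and ask whether histone signal differs between the sorted stages of the same lymphomas. The model takes the 15 lymphoma arrays as independent, although the series design names 3 lymphomas. Its SE and p-values therefore do not account for arrays that come from 1 lymphoma. The F test over the 5 fractions called 1 member, H2bc9, where 4.51% of all probe sets were called. At an unadjusted p under 0.05 it gave 13 members. Without CLP array 1 the F test called 7, and over DN1 to DN4 alone it called 3. With symbols only it called 7. Of the 30 members above background in at least 1 group it called 0 by limma, 12 of them being at an unadjusted p under 0.05, against 9% called of the probe sets with a symbol that met the same rule. For the members with the smallest p of the other classes the adjusted p was 0.0616 for the H3 probe set 17400555, 0.0862 for H2ac21 (17400539) and 0.0941 for H4c9.

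H2bc9 (17291177), a single-gene H2B member, was at 6.41, 5.60 and 5.42 in CLP. In LSK it was at 4.66, 4.20 and 3.96. The DN1 arrays were at 4.28, 3.40 and 3.86, those of DN2 at 4.58, 3.76 and 4.64, those of DN3 at 4.15, 4.49 and 3.89 and those of DN4 at 4.41, 4.13 and 4.52. The 3 CLP arrays lay above all 15 others, which were below background, and only CLP array 1 passed the background level of its own array. CLP was 1.64 ± 0.24 above the mean of DN1 to DN4 (adjusted p = 0.00307, held with any 1 array left out; adjusted p = 0.00913 in the F test). As H2bc9 met the background rule in no group, this is a difference in signal and gives no size for the RNA. It was the 1 member called in that contrast, in which 3.48% of all probe sets were called. Without CLP array 1 the contrast called 6 members higher. CLP was also 1.54 above LSK (0.0281), a call lost without CLP array 2 or any LSK array.

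DN2 against DN1 had a median difference of the members of 0.26. By limma 0 members were called, 15 passed at an unadjusted p under 0.05, and 0.675% of all probe sets were called. The smallest adjusted p was 0.138, for the 10-gene H2A probe set 17291012 (0.53 ± 0.13). H2ac10 differed by 0.64 ± 0.17 (adjusted p = 0.166), H2bc18 by 0.74 ± 0.20 (0.175) and H2bc12 by 1.24 ± 0.36 (0.266). The values of H2bc18 in DN1, 8.62 to 9.04, did not overlap with those in DN2, 9.56 to 9.74.

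The other steps gave 0 called members each by limma. DN3 against DN2 had a median difference of -0.02 and 3 members at an unadjusted p under 0.05, where 1.26% of all probe sets were called. DN4 against DN3 had a median of -0.27 and 7 such members (0.00242% called), DN4 against DN1 a median of 0 and 4 (3.32%), and DN2 against the mean of the other 4 fractions a median of 0.16 and 8 (0.861%). In DN4 against DN3 H2ac21 (17400539), an H2A gene of chromosome 3, differed by -0.85 ± 0.25 and H2bc12 by -0.89 ± 0.36, both at an adjusted p of 1. H2ac21 was at 7.56, 7.87 and 7.49 in DN4 and at 8.26, 8.70 and 8.53 in DN3, with no overlap. Its rise in DN3 over LSK (1.03, 0.0306) was lost in 5 of 6 fits without 1 array. A separate probe set for H2ac21 (17408008) was below background in every group.

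**Figure D5:**
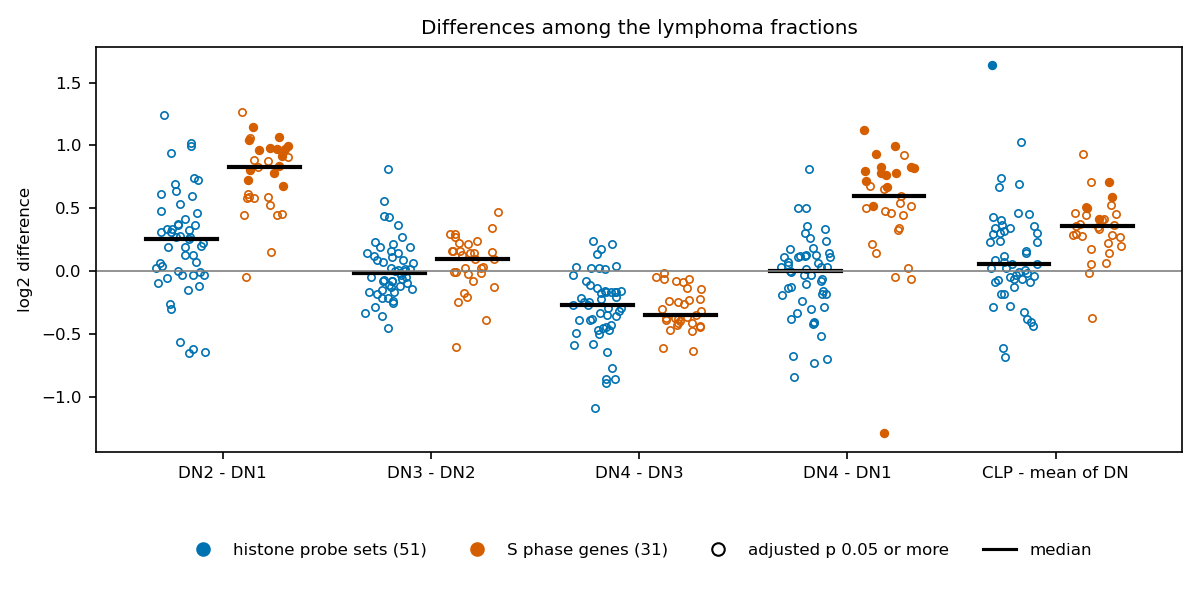
Log2 differences (vertical axis) of the 51 histone members (blue) and the 31 S phase genes (orange) in contrasts among lymphoma fractions, with filled points for adjusted p under 0.05 and a bar at the median. In DN2 against DN1 the medians are 0.26 and 0.83, with 0 members and 14 S phase genes called.

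Genes of DNA replication and S phase, when histone genes are transcribed, were measured on the same arrays (31 of them on single-symbol probe sets). In the lymphoma mean 21 of 31 rose and 0 fell (median 0.64). In DN2 and DN3 23 rose, in CLP and DN4 19, and in DN1 2 (Prim2, and E2f2, an activator of S phase genes), with medians of 0.88, 0.91, 0.98, 0.65 and -0.01. The 21 are 67.7% of the list, against 18.5% of all probe sets called in the lymphoma mean. The 2 in DN1 are 6.45%, under the 12.5% of all probe sets. In DN2, DN3, CLP and DN4 15.8%, 14.6%, 9.09% and 16.7% of all probe sets were called. Prim2, a subunit of the primase that starts new DNA strands, rose by 1.51 ± 0.09 in the lymphoma mean (adjusted p = 4.66e-05). Gins1, part of the replicative helicase, rose by 1.23 ± 0.14 (0.00107), Tipin, which steadies stalled forks, by 1.01 ± 0.11 (0.000608), and Tyms, which makes thymidylate, by 0.86 ± 0.11 (0.00182).

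Among the fractions the F test called 25 of these 31 genes and 1 of the 51 histone members (7 with symbols only or without CLP array 1). Over all probe sets it called 4.51%. Cdc6, which loads the helicase onto origins, averaged 8.02 in DN1 and 8.74 to 9.13 in the other fractions (F test, adjusted p = 0.000183). Pole, the catalytic subunit of the leading-strand polymerase, averaged 8.48 in DN1 and 9.31 to 9.68 elsewhere (0.000383). Lig1 and Mcm5 were also lowest in DN1 (9.20 and 9.31, adjusted p = 0.000689 and 0.00145). In DN2 against DN1 14 rose and 0 fell, and in DN4 against DN1 13 rose and 1 fell, E2f2 (-1.29 ± 0.22, adjusted p = 0.0037), which was named after its value was seen. Over all probe sets 0.675% and 3.32% were called in these 2 contrasts. DN1 had the lowest mean of the 5 fractions for 28 of the 31 S phase genes and for 21 of the 51 histone members. The span between the highest and lowest fraction had a median of 0.97 for the S phase genes and 0.52 for the histone members. Whether the lists differ in this was not tested. The histone member was highest in DN2 for 17, in CLP for 15, in DN3 for 11, in DN1 for 6 and in DN4 for 2. Of the 30 members above background in at least 1 group, 17 were highest in DN2. DN3 was highest for 5 of these 30, CLP for 4, DN1 for 3 and DN4 for 1. DN1 was lowest for 14 of them, and their median span was 0.595.

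The machinery that makes and trims histone mRNA was followed as 20 genes, of which 3 rose and 1 fell in the lymphoma mean. These 4 calls are 20% of the list, near the 22.3% of all probe sets with a symbol. Cpsf3, the endonuclease that cuts histone pre-mRNA, averaged 9.56 in LSK and 10.18 to 10.54 in the fractions (0.78 ± 0.11, adjusted p = 0.00224). Zfp473, a component of the U7 snRNP complex, rose by 0.55 ± 0.09 (0.00679), and Ncbp1, of the cap-binding complex, by 0.50 ± 0.10 (0.0109). Cpsf2, the partner of Cpsf3, fell by 0.53 (SE 0.11, 0.0162). Slbp, which binds the stem-loop, averaged 9.19 in LSK and 8.98 to 9.59 in the fractions (0.15 ± 0.11, adjusted p = 0.368). Npat, the coactivator of histone gene transcription, differed by -0.13 ± 0.10 (0.425). In the F test over fractions only Nelfe, of the NELF pausing complex, was called (adjusted p = 0.0044), with 8.45 in DN1 and 8.92 to 9.39 in the others. A call of 1 in 20 genes is near the 4.51% of all probe sets called by that test.

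Chaperones that carry new histones to DNA were followed as 22 genes, of which 3 rose and 1 fell in the lymphoma mean. The called share, 18.2%, is near the 18.5% of all probe sets and the 22.3% of those with a symbol. Nasp, a reservoir chaperone for H3 and H4, rose by 0.69 ± 0.09 (adjusted p = 0.00212). Chaf1b, a subunit of the CAF-1 complex that deposits H3 and H4 behind the fork, rose by 0.65 ± 0.13 (0.0142), and Mms22l, which acts at damaged forks, by 0.59 ± 0.11 (0.0104). Ipo4, an importin for H3 and H4, fell by 0.71 (SE 0.10, 0.00317). Chaf1a was the 1 gene of the list called by the F test (0.00386), with 6.73 in DN1, 7.84 in DN2 and 7.49 to 7.76 in the others, and it rose by 1.11 ± 0.16 from DN1 to DN2 (0.00446). A call of 1 in 22 genes is near the 4.51% of all probe sets called by the F test.

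Histone variants that are made outside S phase, or from polyadenylated mRNA, did not share 1 direction. Of 9 measured, 1 rose and 3 fell in the lymphoma mean (44.4% called, against 22.3% of all probe sets with a symbol). H2ax, the H2A variant phosphorylated at DNA breaks, rose by 0.64 ± 0.16 (adjusted p = 0.0304). H1f10, a linker variant, fell by 0.80 (SE 0.09, 0.000828), H2aj by 0.48 (0.0458) and Cenpa, the H3 variant of centromeres, by 0.47 (0.0432). The F test over fractions called 0 of the 9 by limma.

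Members with unusual expression were read separately. H2bc21 (17400541), a member known to give polyadenylated mRNA in cells that do not divide, was at 5.77 to 6.33 in LSK and 5.44 to 6.73 on the lymphoma arrays, with full overlap (0.13 ± 0.17, adjusted p = 0.619). The testis genes H2bc1 (17291258) and H2ac1 (17285938) were at 2.24 to 2.81 and at 4.90 to 5.92 over the 18 arrays. H2bc1 was below background on all arrays, and H2ac1 differed between lymphoma mean and LSK by 0.35 ± 0.19 (0.259).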

How the data were processed

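Total RNA was isolated by RNeasy Micro columns, then amplified and labelled with the Affymetrix WT Pico kit, per the labels' protocols. Each array gives 1 log2 signal for a probe set, which the authors computed by RMA in the oligo package, per the submitters' processing notes (no versions given). The sources used here do not give the array's genome build. Amplification and RMA compress differences, and probes shared by several histone genes cannot separate them. Probe sets of no symbol (16010) were kept in the fits.

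The values were used as deposited, with no further normalization or filter. limma 3.58.1 in R 4.3.3 (lmFit and eBayes, two-sided) was fitted on all 41345 probe sets, with Benjamini-Hochberg adjustment over all of them and a threshold of 0.05. The lymphoma mean averages, within a replicate number, the arrays of the 5 fractions, which gives 3 values against 3 LSK arrays. A fraction against LSK used only those 6 arrays. Contrasts among fractions and the F test used 1 model of the 15 lymphoma arrays. SE is limma's standard error. The code was tested on simulated data.

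Other lists were read on single-symbol probe sets, the brightest for each gene. The members and lists were chosen with earlier results of these data known. Named were, per comparison, the 6 called members with the largest rise and fall, in each class the member of highest mean signal and of smallest F test p, germ line and polyadenylated members, and up to 4 genes of each other list with the smallest p. The other members in the text were named after their values were seen. Motif counts use exact letters in the 250 bases before the start. Alternatives were other normalizations and priors, a filter on dim probe sets, symbols only, the replicate block, all 18 arrays in 1 model and single arrays left out.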

Additional observations from a re-analysis of the deposited data

Results flagged for a closer look

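The H2B gene H2bc9 (17291177) differed between lymphoma fractions by the test of the difference itself. CLP was 1.64 ± 0.24 above the mean of DN1 to DN4 (limma adjusted p = 0.00307, n = 3 against 12 arrays), and each of the 3 CLP arrays lay above each of the 12 DN arrays. The series design names 3 lymphomas, so these arrays are not separate tumours, and the fit took them as independent. The DN arrays were below background, and of the CLP arrays only array 1 passed the level of its own array, so the difference is one of signal and gives no size for the RNA. CLP arrays also correlated least with each other, and the part of this in the difference was not tested.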

How the results depend on the processing

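No called value of a member reversed its sign under any alternative. Of 82 calls of members against LSK, 24 were lost with all 18 arrays in 1 model. Of 83 calls in all, 20 were lost with the replicate block, 9 with array medians centred, 5 with quantile normalization and 3 with the trended and robust prior. With symbols only 0 were lost, and the filter on dim probe sets lost 0 of the 57 it kept. Leaving out single arrays lost 168 of 507 values.

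The counts that moved by over 1.5 times are these. With symbols only, members called higher than LSK were 14 in CLP, 7 in DN1, 23 in DN3 and 15 in DN4, 4 were lower in DN4, the F test called 7, and 1 was lower in CLP against the DN mean. With the filter, 1 was lower in the lymphoma mean, DN2 and DN3, 0 in CLP and DN1, 1 was higher in DN1, the F test called 0 and CLP against the DN mean 0. Quantile normalization left 0 higher in DN1, and median centring left 1, with 2 in the F test. All 18 arrays in 1 model gave 19 higher in CLP, 14 in DN2 and 2 in DN4, with 1 lower in DN2. The replicate block gave 3 higher and 0 lower in CLP, and 2 in the F test. Same-numbered arrays of different fractions correlated over 0.1 in their deviations in 22 of 30 pairs (-0.20 to 0.35, median 0.12), and arrays of different numbers in 6 of 60 (median -0.08), a hint of shared numbers from the data. Because not every same-numbered pair passed 0.1, the numbers were not taken as pairs. The lymphoma mean still averages arrays by number, so its SE and p-values depend on a grouping that the labels do not tie to a lymphoma. Without CLP, an alternative chosen after seeing the data, the F test called 3. The cause of these changes was not tested, except that the filter and symbols only test fewer probe sets.

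Leaving out 1 array at a time, higher calls ranged from 2 to 16 in CLP, 0 to 5 in DN1, 13 to 19 in DN2, 3 to 9 in DN4, 1 to 6 in CLP against the DN mean and 0 to 1 in DN2 against DN1. Lower calls ranged from 0 to 2 in CLP, 0 to 1 in DN1, 1 to 3 in DN2, 1 to 3 in DN3, 0 to 1 in CLP against the DN mean and 0 to 1 in DN2 against the other fractions. The F test ranged from 1 to 7. The 21 members that met the background rule in no group allow no statement on RNA level.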

Other observations

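Linker histone genes, which bind the DNA between nucleosomes and lie outside the rule for members, were looked at after the other values were seen. H1f5 (17291005) was at 6.09, 5.77 and 5.88 in LSK and between 6.55 and 8.67 on the lymphoma arrays, with no overlap. It rose by 1.74 ± 0.11 in the lymphoma mean (limma adjusted p = 6.29e-05), by 2.26 in CLP (0.00267), by 2.04 in DN2 (5.8e-05), by 1.74 in DN3 (0.00176), by 1.50 in DN1 (0.0323) and by 1.14 in DN4 (0.00304). H1f3 rose by 0.50 ± 0.12 in the lymphoma mean (0.029). H1f1 and H1f2 differed by 0.07 and -0.13 (adjusted p = 0.893 and 0.735), and the testis gene H1f6 by 0.29 (0.15).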
